A study of Mus musculus with 6 samples.

Results

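The 9 genes examined here encode the core machinery that makes and uses microRNAs: Drosha and Dgcr8, which form the nuclear Microprocessor, Xpo5 (exportin 5), Dicer1, the Argonautes Ago1, Ago2 and Ago3, and the Argonaute-binding scaffolds Tnrc6a and Tnrc6b. They were picked by symbol from the deposited table of raw read counts, and all 9 of its 48397 rows bearing these symbols were found. All 9 passed the filter on low counts, as did 12312 genes in all. The samples were stage 0 iNKT cells, the earliest precursors after positive selection in the thymus, from untreated mice aged 8 to 10 weeks of 2 genotypes: BALB/c wild type, and SKG, which carry a hypomorphic mutation of Zap70 on the same BALB/c background. Zap70 is the kinase that relays the signal of the T cell antigen receptor (TCR). Each genotype was represented by 3 libraries, and each library came from the pooled thymi of 3 mice, about 1000 sorted cells in all, so that a replicate is a pool. The SKG mutation is carried in the germline by every cell of the mouse. The wild-type BALB/c mice are described as purchased, and the groups are not described as littermates. The comparison asks whether a weaker TCR signal alters gene expression at this first stage.

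MicroRNAs are cut from hairpins in longer primary transcripts. Drosha, a ribonuclease III enzyme, releases the hairpin in the nucleus with Dgcr8, exportin 5 carries it to the cytoplasm together with the GTPase Ran, and Dicer trims it to a short duplex. An Argonaute protein keeps a strand of this duplex and pairs its seed, bases 2 to 8, with target mRNAs, and Tnrc6 (GW182) proteins bound to Argonaute recruit the deadenylases that shorten the target's poly(A) tail. Mature iNKT cells largely fail to develop in mice whose thymocytes lack Dicer1, which is why these genes are of interest in this lineage.

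Some of the members contain annotated microRNA genes of their own. These are Mir1306 and Gm24572 in exons of Dgcr8, Gm47288 in an exon of Drosha, Mir5113 in an exon of Tnrc6b and Mir693 in an intron of Xpo5. Of these, only Mir1306 lies wholly in coding sequence. The hairpin gene Mir1306 lies at chr16:18284239-18284317 of GRCm38, minus strand, wholly within a coding exon of Dgcr8, and Drosha is known to cut Dgcr8 mRNA at hairpins. Its mature sequences (RefSeq, GRCm38.p6) are shown because a member makes their precursor, with the seed in capitals.
mmu-miR-1306-5p: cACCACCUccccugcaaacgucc
mmu-miR-1306-3p: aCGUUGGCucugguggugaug
The next sequences are those most relevant for transcripts that were read in these libraries. Mir17hg is the host transcript of the miR-17 to miR-92a cluster on chromosome 14, whose products fall into 4 seed groups, and miR-106b, made from another locus, shares the seed of miR-17 and miR-20a.
mmu-miR-17-5p: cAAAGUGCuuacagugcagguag
mmu-miR-20a-5p: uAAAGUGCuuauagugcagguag
mmu-miR-106b-5p: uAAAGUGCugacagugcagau
mmu-miR-18a-5p: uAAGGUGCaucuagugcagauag
mmu-miR-19a-3p: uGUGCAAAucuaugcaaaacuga
mmu-miR-19b-3p: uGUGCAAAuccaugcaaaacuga
mmu-miR-92a-3p: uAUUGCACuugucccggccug
The others, each with a seed of its own, are miR-142a-3p, abundant in blood cells, miR-22-3p, miR-181a-5p, which lowers phosphatases of the TCR pathway in thymocytes, and let-7i-5p.
mmu-miR-142a-3p: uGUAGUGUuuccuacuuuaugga
mmu-miR-22-3p: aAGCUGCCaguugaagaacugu
mmu-miR-181a-5p: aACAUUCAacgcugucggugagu
mmu-let-7i-5p: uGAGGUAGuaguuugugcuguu

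The reads counted on genes numbered from 37176544 to 43115544 per library. Expression is given as CPM, counts per 1000000 reads of the library's total after TMM scaling. Markers of the sorted cells were present in every library, with Cd3e between 796 and 1093 CPM, Trac between 701 and 915, Egr2 between 492 and 1543, and Cd24a, on which the sort selected, between 7.29 and 90.5. Cd8a, selected against, was between 20.4 and 121 CPM. The summed level of 8 genes of the sort and stage, CPM scaled to total reads, was 3141 to 4146 in BALB/c and 2749 to 3021 in SKG, where the genotypes did not overlap. This list joins genes the sort selected for, such as Cd24a, with some it selected against, such as Cd8a. Singly, 2 of the 8 did not overlap, beside 13.9% of all genes tested, and the difference in the sum was given no test. Tbx21, a gene of mature iNKT1 cells, had 0 reads throughout. Of the 9 listed genes of mature iNKT cells, Tbx21 among them, 8 had reads. The summed level of these 9 genes lay between 401 and 515 CPM in BALB/c and between 443 and 456 in SKG. Zap70 mRNA was at 447 ± 65.3 CPM for BALB/c against 355 ± 46.0 for SKG (SD, n = 3 each). The libraries overlapped, and this mRNA does not check the labels because SKG is a point mutation. The libraries did not hold equally many genes. Those with at least 10 reads ranged from 10835 to 14791, and in each genotype the library with the fewest, BALB/c replicate 1 and SKG replicate 3, also had the highest summed markers of double-positive thymocytes (464 and 236 CPM scaled to total reads, against 74.7 to 174 in the others), B cells (94.3 and 43.7 against 7.40 to 23.7) and myeloid cells (76.8 and 136 against 8.14 to 18.5). All 8, 7 and 8 genes of these lists had reads. That both libraries were high holds for these 3 lists and not for every list. Of 7 thymic epithelial genes Krt5 and Psmb11 were at 0, and the sum lay between 33.5 and 105 in BALB/c and between 56.7 and 91.3 in SKG. Their part in the values below was not tested.

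None of the 9 genes differed between SKG and BALB/c beyond the spread of the libraries. With edgeR's quasi-likelihood test, 0 of 9 were called by the thresholds of the study, a Benjamini-Hochberg FDR under 0.1 over all 12312 genes plus a change of 1.5-fold or more, where the background over all genes was 0.0%. By unadjusted p under 0.05, the count was again 0 of 9, against 5.45% of all genes, and the lowest adjusted p was 0.971 (edgeR). DESeq2 also called 0 of the 9, with and without shrinkage of the fold changes, against backgrounds of 1.67% and 2.58%, as did limma-voom. For all 9 genes the libraries of the genotypes overlapped, whereas they did not for 13.9% of the genes tested. The fitted value was higher in SKG for 3 members and lower for 6, with a median log2 fold change of -0.09, beside -0.02 over all genes. The reads on the 9 genes together came to 540 ± 65.0 CPM for BALB/c against 523 ± 25.2 for SKG (SD, n = 3 each). These results do not show that the genotypes express the genes alike. The 95% intervals of the fold changes include 1.5-fold differences in at least one direction for each member.

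**Figure D1:**
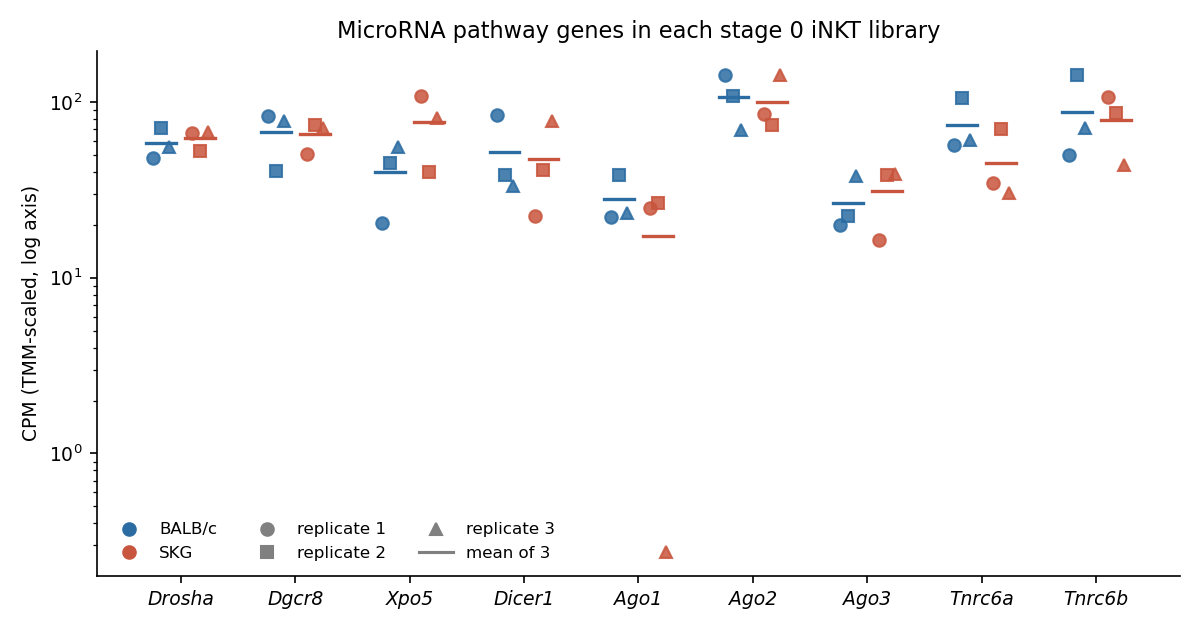
Expression of the 9 members in each library, as TMM-scaled CPM on a log axis, with BALB/c in blue, SKG in red, a symbol for each replicate number and a line at the mean of 3 libraries. The colours overlap for every gene, and the point far below the rest is Ago1 in SKG replicate 3, at 0.276 CPM.

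**Figure D2:**
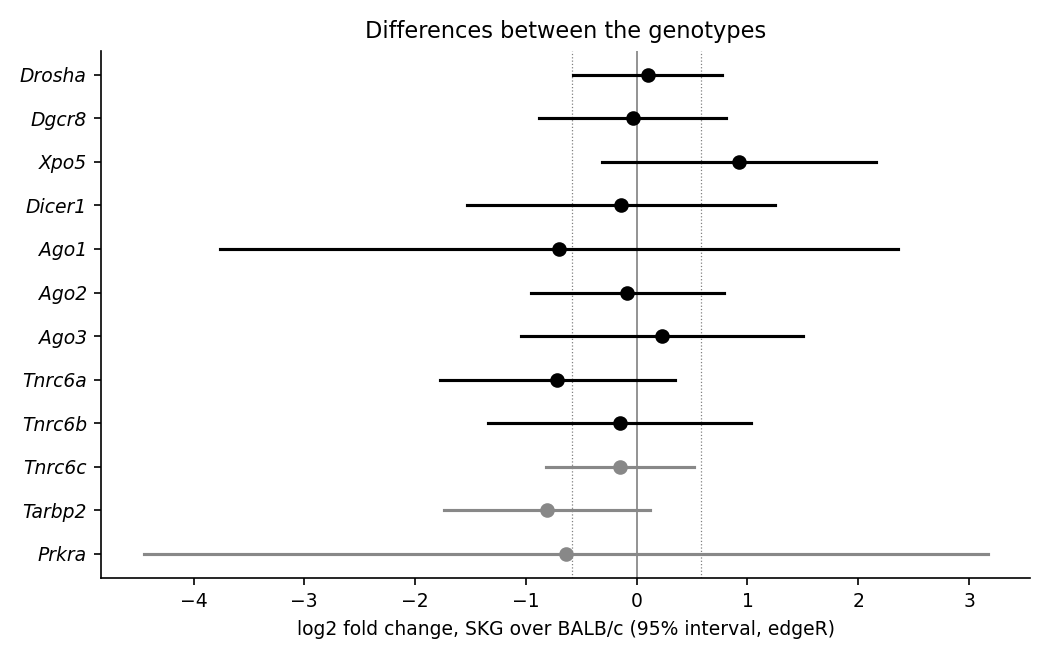
Fitted log2 fold changes, SKG over BALB/c, with 95% intervals from edgeR, for the members (black) and for the paralog Tnrc6c and the Dicer partners Tarbp2 and Prkra (grey). Dotted lines mark a 1.5-fold change in either direction, and every interval includes 0.

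Drosha was the steadiest of the members. The gene, at 12824815 to 12935291 of chromosome 15 in GRCm38, encodes the nuclease of the Microprocessor. It was at 47.7, 71.1 and 55.3 CPM in the BALB/c replicates 1 to 3 and at 66.5, 52.3 and 67.6 in the SKG replicates 1 to 3. All 3 SKG values lay within the BALB/c range. Its fold change of 1.07 had the narrowest interval of the 9, from 0.672 to 1.71 (log2 0.10, standard error 0.28, adjusted p = 0.991 from edgeR). On the log2 scale its standard deviation within genotypes was 0.25, and 9.64% of the tested genes of similar level (within the range of the members' mean CPM) had a smaller one. The median of those genes was 0.53.

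Dgcr8, the RNA-binding partner of Drosha, lies on chromosome 16 from 18253948 to 18289246. It was at 83.0, 40.7 and 77.4 CPM in BALB/c and at 50.7, 74.2 and 71.2 in SKG. The means, 67.0 ± 23.0 and 65.3 ± 12.8 CPM (SD, n = 3 libraries each), were the closest of all members, with a fold change of 0.975 and an interval from 0.542 to 1.75 (adjusted p = 0.999 from edgeR). Exons of 3 other counted genes, Trmt2a, Mir1306 and Gm24572, cover 12.9% of the Dgcr8 exon sequence. Reads on such stretches cannot be given to a single gene, so the Dgcr8 level may be understated, equally in both genotypes as far as the gene models go. Mir1306 and Gm24572 had 0 reads in all 6 libraries.

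Xpo5 had the largest fitted increase among the members. It lies on chromosome 17 from 46202782 to 46243598 and encodes the export receptor of hairpin precursors. Its level was 20.4, 44.6 and 55.4 CPM in BALB/c and 107.6, 39.9 and 81.3 in SKG. SKG replicates 1 and 3 lay above all BALB/c libraries, while SKG replicate 2 lay below BALB/c replicates 2 and 3. The mean was 40.1 ± 17.9 CPM for BALB/c against 76.3 ± 34.2 for SKG (SD, n = 3 each), a fold change of 1.90 with an interval from 0.807 to 4.48 (log2 0.93, standard error 0.52, unadjusted p = 0.118, adjusted p = 0.971 from edgeR). When single libraries were left out, its log2 fold change was lowest at 0.58, in the absence of SKG replicate 1, and highest at 1.25, in the absence of SKG replicate 2.

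Dicer1 varied more among libraries of one genotype than between the genotypes. This gene, on chromosome 12 from 104687742 to 104751952, was at 83.6, 38.5 and 33.2 CPM in BALB/c and at 22.4, 41.0 and 77.5 in SKG. One library of each genotype, BALB/c replicate 1 and SKG replicate 3, stood at about the same high level, and the other 4 lay between 22.4 and 41.0. The means were 51.8 ± 27.7 and 47.0 ± 28.0 CPM (SD, n = 3 each), a fold change of 0.907 with an interval from 0.346 to 2.38 (adjusted p = 0.997 from edgeR). Which library was left out decided the direction, with a log2 fold change of 0.39 without BALB/c replicate 1 and -0.69 without SKG replicate 3. With both left out it was -0.16, a choice made after seeing the data.

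Ago2, the Argonaute that can itself cleave a fully paired target, had the same pair of high libraries. It lies on chromosome 15 from 73095844 to 73184935. Its level was 142.4, 107.8 and 69.4 CPM in BALB/c and 85.4, 74.2 and 141.2 in SKG. The means of 107 ± 36.5 and 100.3 ± 35.9 CPM (SD, n = 3 each) gave a fold change of 0.942 with an interval from 0.515 to 1.72 (adjusted p = 0.997 from edgeR).

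BALB/c replicate 1 and SKG replicate 3, in which Dicer1 and Ago2 were highest, are the libraries named above for the fewest genes detected and the highest sums of double-positive, B cell and myeloid markers. In bulk samples, a different share of cells of some type and a different amount of RNA per cell cannot be told apart. Some members went the other way in these libraries. Tnrc6b had its lowest values there, 49.6 CPM in the first BALB/c library and 43.5 in the third SKG library, against 71.0 to 142.7 in the others. Ago1 was likewise lowest there in each genotype. With both libraries left out the log2 fold changes were -0.14 for Ago2 and -0.13 for Tnrc6b, and 0 of the 9 genes were called. A role of the marker genes or of the number of genes detected in these values was not tested.

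Ago1 and Ago3 lie next to each other on chromosome 4, both on the minus strand, Ago3 from 126331704 to 126429556 and Ago1 from 126435012 to 126468583. Ago1 received 911, 1427 and 1054 reads in BALB/c against 1002, 1031 and 10 in SKG. The other 5 libraries lay between 22.03 and 38.4 CPM, and SKG replicate 3 was far below at 0.276. Its fitted fold change of 0.616, with an interval from 0.0739 to 5.14 (adjusted p = 0.991 from edgeR), rested on that library, and without it the log2 fold change went from -0.70 to -0.11. Such lone low libraries were not particular to Ago1. Among 6314 genes that each of the other 5 libraries covered with 500 reads or more, 62 had 10 or fewer in SKG replicate 3, and by the same measure BALB/c replicate 1 had 46 such genes of 6275. There were 13 in BALB/c replicate 2, 1 in SKG replicate 2 and 0 in BALB/c replicate 3 and SKG replicate 1. Ago1 was the only member among them.

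Ago3 was at 19.9, 22.4 and 37.6 CPM in BALB/c and at 16.4, 38.3 and 38.9 in SKG. Each genotype had both high and low libraries, and the fold change was 1.17 with an interval from 0.484 to 2.84 (adjusted p = 0.991 from edgeR). The fourth mouse Argonaute, Ago4, follows on the same strand, from 126489541 to 126533472, and is not among the 9. It had 0 reads in all 3 BALB/c libraries and 44, 0 and 3 in SKG, was too low to be tested, and was not detectable in BALB/c at this depth, where a count of 0 allows up to 3 reads per library, or between 0.0696 and 0.0799 CPM by library.

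Tnrc6a had the largest fitted decrease in SKG among the 9. The gene, on chromosome 7 from 123123885 to 123195296, was at 56.7, 104.8 and 60.8 CPM in BALB/c and at 34.55, 70.4 and 30.35 in SKG. SKG replicates 1 and 3 lay below every BALB/c library, but SKG replicate 2 lay above BALB/c replicates 1 and 3. The means were 74.1 ± 26.7 and 45.1 ± 21.99 CPM (SD, n = 3 each), a fold change of 0.609 with an interval from 0.291 to 1.27 (log2 -0.72, standard error 0.44, unadjusted p = 0.153, adjusted p = 0.977 from edgeR). Without SKG replicate 2 the log2 fold change was -1.18 (unadjusted p = 0.0342, adjusted p = 0.926 from edgeR). Xpo5 also had an unadjusted p under 0.05 in that setting, and no other member did in any setting tried.

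Tnrc6b, on chromosome 15 from 80711313 to 80941085, was at 49.6, 142.7 and 71.0 CPM in BALB/c and at 106.7, 86.6 and 43.5 in SKG. BALB/c replicate 2 held the highest value and SKG replicate 3 the lowest, with the rest interleaved. The fold change was 0.900 with an interval from 0.395 to 2.05 (adjusted p = 0.991 from edgeR). Its direction turned when BALB/c replicate 2 (log2 fold change 0.38) or SKG replicate 3 (0.15) was left out, and it was -0.43 when BALB/c replicate 1 or SKG replicate 1 was. Tnrc6c, the paralog outside the set, was steadier, at 70.8 ± 9.81 CPM for BALB/c against 63.8 ± 14.7 for SKG (SD, n = 3 each), with a fold change of 0.901 and an interval from 0.566 to 1.43 (adjusted p = 0.991 from edgeR).

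To set the genes against each other, CPM was divided by the length of all exons of a gene in kilobases. Over the 6 libraries the highest levels on this scale were 10.1 ± 1.61 CPM per kilobase for Drosha (SD, n = 6 libraries), 8.60 ± 2.17 for Dgcr8, 8.48 ± 4.58 for Xpo5 and 7.37 ± 2.32 for Ago2. Next came Tnrc6a at 4.69 ± 2.13, Tnrc6b at 3.52 ± 1.58, Dicer1 at 2.95 ± 1.496, Ago1 at 2.78 ± 1.53 and Ago3 at 1.75 ± 0.629. No gene exceeded its next neighbour in all 6 libraries. Drosha was above Dgcr8 in 3 of 6 and Dicer1 above Ago1 in 2 of 6, so these neighbours had no fixed order. Tnrc6a was above Tnrc6b in 5 of 6, as Ago1 was above Ago3, and the order was given no test. Farther apart, Ago2 exceeded Dicer1, Ago1, Ago3 and Tnrc6b in 6 of 6 libraries. The order depends on the length used. Per kilobase of coding sequence Ago2 was first, at 40.1 ± 12.6 CPM per kilobase, and Drosha was the fifth, at 14.6 ± 2.32. Dgcr8, Xpo5 and Tnrc6b also came before Drosha on that scale.

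Ago2 made up the largest part of the Argonaute transcripts in every library, by reads per exon kilobase. Its share of the reads per exon kilobase of Ago1 to Ago4 was 72.2%, 55.8% and 49.1% in BALB/c and 59.2%, 48.7% and 80.8% in SKG, and was highest in BALB/c replicate 1 and SKG replicate 3. The mean was 59.0% ± 11.9 for BALB/c against 62.9% ± 16.4 for SKG (SD, n = 3 each). The share of Ago1 was between 19.3% and 34.4% in every library but SKG replicate 3, where it was 0.273%. Ago3 took between 8.52% and 22.5%, and Ago4 at most 1.52%. Within the Tnrc6 family the order depended on the length used. Tnrc6a took 38.5% ± 3.24 for BALB/c against 29.7% ± 9.33 for SKG (SD, n = 3 each), Tnrc6b 23.4% ± 5.73 and 27.5% ± 5.66, and Tnrc6c 38.1% ± 7.59 and 42.8% ± 6.67. Per kilobase of coding sequence Tnrc6b was the largest on average, at 36.8% ± 7.40 and 41.8% ± 6.75, against 31.0% ± 2.51 and 23.3% ± 7.88 for Tnrc6a and 32.2% ± 7.46 and 34.9% ± 5.47 for Tnrc6c (SD, n = 3 each, BALB/c first). All 7 shares overlapped between the genotypes. Without SKG replicate 3 the difference in the Ago1 share, SKG minus BALB/c, changed from -7.38 to 2.47 percentage points and that of Ago2 from 3.87 to -5.08.

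**Figure D3:**
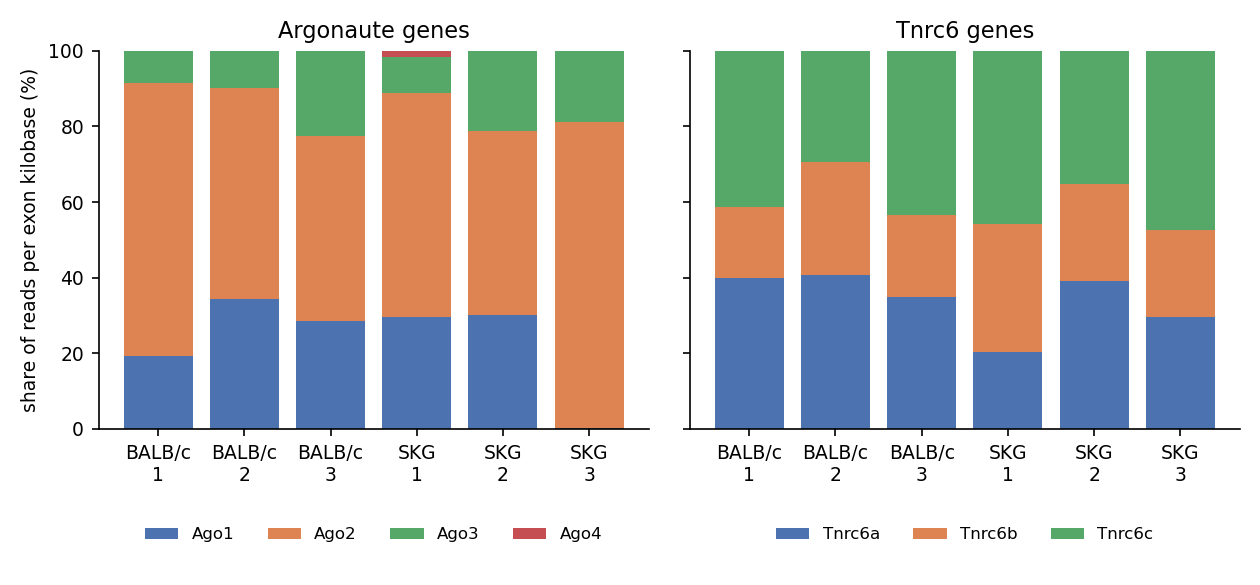
Share of each gene in the reads per exon kilobase of its family, in percent, for the 6 libraries. Ago2 (orange, left) is the largest part of the Argonaute bar in each library and Ago1 (blue, left) is nearly missing from SKG replicate 3, while the 3 Tnrc6 genes (right) each hold between 18.7% and 47.4%.

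Genes that work with these members were examined in 4 lists. Of 93 such genes in the table, 88 were tested and 0 were called by edgeR. At an unadjusted p under 0.05 there were 5, of which 4 were higher in SKG (background 3.07%) and 1 in BALB/c (background 2.38%). DESeq2 without shrinkage called 1, Tob2 (background 2.58%), and with shrinkage 0 (background 1.67%). BALB/c and SKG libraries were fully separated for 7 of the 88 genes, 5 of them higher in SKG (background 6.79%) and 2 in BALB/c (background 7.12%).

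Among 15 cofactors of Drosha and other proteins that act on primary transcripts or double-stranded RNA, the median log2 fold change was -0.02. Over all genes it was also -0.02, and 0 of the 15 had an unadjusted p under 0.05. Ncbp1, a subunit of the nuclear cap-binding complex, had the lowest p. It was at 161, 210.2 and 182 CPM in BALB/c and at 197, 260.3 and 425 in SKG (log2 fold change 0.67, unadjusted p = 0.0615, adjusted p = 0.948 from edgeR). The editing enzyme Adarb1 received 683, 506 and 153 reads in BALB/c against 126, 1 and 3 in SKG. Its genotypes did not overlap, but the BALB/c libraries themselves spanned 3.38 to 16.5 CPM (unadjusted p = 0.118, adjusted p = 0.971 from edgeR), and its fitted fold change depends on the libraries near 0. Ddx5, an RNA helicase of the Microprocessor, was at 1037 ± 118 CPM for BALB/c against 918 ± 56.7 for SKG (SD, n = 3 each) (adjusted p = 0.991 from edgeR).

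In the list of 17 genes for export, Dicer partners and loading of Argonaute, 12 had fitted values lower in SKG, with a median log2 fold change of -0.18. Ran, the GTPase with which exportin 5 leaves the nucleus, was at 513, 503 and 378 CPM in BALB/c and at 349, 307 and 337 in SKG. All 3 SKG libraries lay below all BALB/c libraries, with a fold change of 0.713 (standard error 0.16 on the log2 scale, unadjusted p = 0.0215, adjusted p = 0.834 from edgeR). Fkbp5, a cochaperone of Hsp90, was at 65.4, 44.4 and 52.4 CPM in BALB/c and at 78.9, 133.6 and 287 in SKG, again without overlap (fold change 3.08, unadjusted p = 0.0130, adjusted p = 0.815 from edgeR). Without SKG replicate 3 its log2 fold change went from 1.62 to 0.99.

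The RNA-binding partners of Dicer were both lower on average in SKG, without passing the test. Tarbp2 was at 81.32, 74.85 and 54.28 CPM in BALB/c and at 59.3, 33.1 and 27.7 in SKG, where only SKG replicate 1 reached into the BALB/c range (fold change 0.571, interval 0.300 to 1.09, unadjusted p = 0.0783, adjusted p = 0.952 from edgeR). Prkra received 202, 473 and 705 reads in BALB/c against 503, 342 and 1 in SKG, so that SKG replicate 3 again held a near absence, and without it the log2 fold change went from -0.64 to -0.05.

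The effectors that act downstream of Tnrc6 proteins, such as the CCR4-NOT and PAN2-PAN3 deadenylases, the decapping enzymes and the translational repressors, formed a list of 46 genes. Ajuba, Wtip and Trim71 were too low to be tested. Of the other 43, 31 had fitted values higher in SKG and 12 lower, with a median log2 fold change of 0.19, beside -0.02 and 6030 of 12312 genes higher in SKG over the whole table. The 3 with an unadjusted p under 0.05 were all higher in SKG (background 3.07%), and 0 passed the FDR in edgeR. Tob2, which links mRNAs to CCR4-NOT, was at 63.1, 115 and 85.3 CPM in BALB/c and at 166, 210.5 and 158 in SKG (fold change 2.03, standard error 0.27 on the log2 scale, unadjusted p = 0.0075, adjusted p = 0.686 from edgeR). Cnot1, the scaffold of CCR4-NOT that Tnrc6 proteins contact, was at 227, 188 and 249 CPM in BALB/c and at 435, 442 and 264 in SKG (fold change 1.72, interval 1.16 to 2.56, unadjusted p = 0.0149, adjusted p = 0.830 from edgeR). Eif4e2, a cap-binding translational repressor, was at 104 ± 23.9 CPM for BALB/c against 165 ± 28.5 for SKG (SD, n = 3 each) (unadjusted p = 0.0324, adjusted p = 0.864 from edgeR). For each of these the SKG libraries lay above the BALB/c libraries. The same held in this list for Cnot6, a catalytic subunit of CCR4-NOT named after its values were seen. Cnot6 was at 189, 61.0 and 159 CPM in BALB/c and at 224, 210.2 and 428 in SKG (unadjusted p = 0.0608, adjusted p = 0.947 from edgeR). Thus 4 of the 43 genes were higher in SKG without overlap, beside 6.79% of all genes tested.

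Of 15 genes for tailing, decay and other turnover of microRNAs, 13 were tested, and Lin28a and Lin28b, blockers of let-7 maturation, had at most 4 reads in any library. The median log2 fold change was 0.33, beside -0.02 over all genes, and 0 had an unadjusted p under 0.05. The lowest p was that of the exosome nuclease Dis3, at 70.3 ± 19.2 CPM for BALB/c against 95.1 ± 6.71 for SKG (SD, n = 3 each) (unadjusted p = 0.144, adjusted p = 0.972 from edgeR). The nuclear exonuclease Xrn2 was at 245 ± 75.5 and 318 ± 38.3 CPM (SD, n = 3 each). Dis3l2, which degrades tailed let-7 precursors, was at 85.5 ± 31.3 and 108 ± 29.7 CPM, and both pairs of genotypes overlapped.

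**Figure D4:**
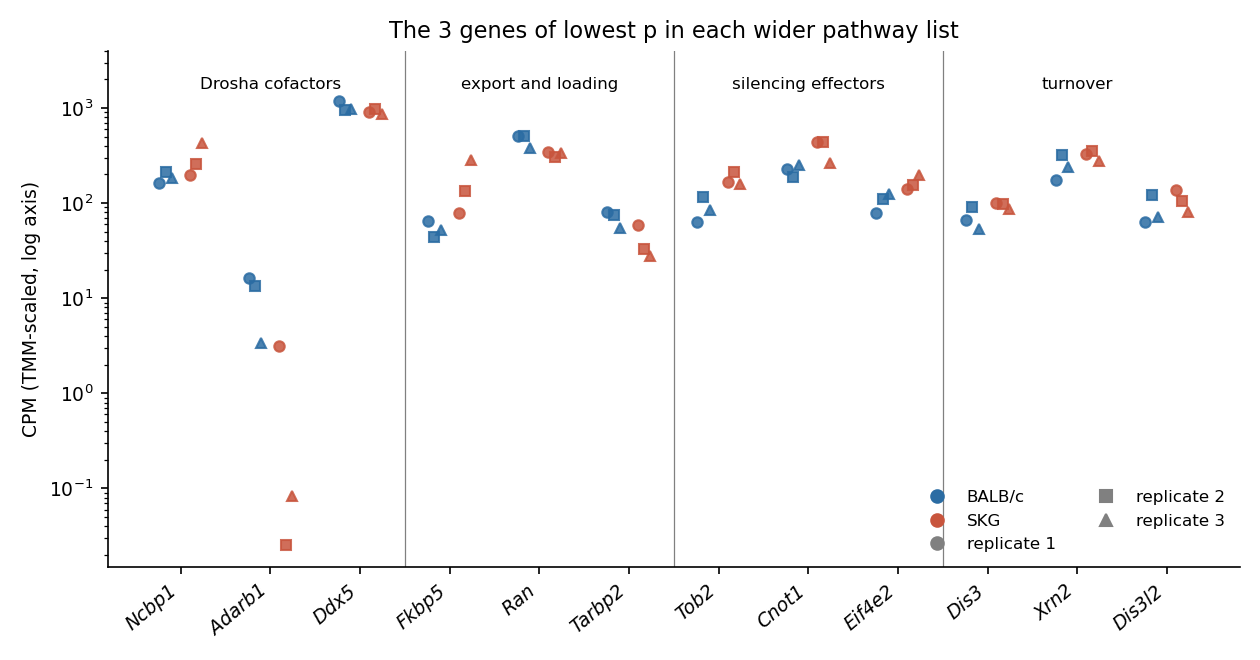
CPM on a log axis in each library for the 3 genes of lowest unadjusted p in each of the 4 lists, with BALB/c in blue, SKG in red and a symbol for each replicate number. Red and blue separate for Adarb1, Fkbp5, Ran, Tob2, Cnot1 and Eif4e2, among genes picked for their low p. Over the 4 lists together, 7 of 88 tested genes separate, beside 13.9% of all genes tested. In edgeR 0 of the 12 genes passed the FDR (DESeq2 without shrinkage called Tob2).

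The substrates of the pathway were seen only in part, because libraries made from poly(A) RNA do not hold mature microRNAs, and the mature sequences printed above were therefore not measured. Of 1180 rows named as microRNA hairpin genes, 193 had a read in any library, and these rows took 0.00178% of all reads. Among 41 hairpin genes chosen for their role in lymphocytes, 11 had a read. In 19 of the 41 the hairpin lies wholly inside exons of another counted gene, where a read overlaps both, and 0 of those 19 had a read. Host transcripts were better covered. Mir17hg, on chromosome 14 from 115042879 to 115046727, received 170, 418 and 448 reads in BALB/c against 229, 245 and 175 in SKG, with overlapping libraries at 8.42 ± 3.79 and 5.59 ± 0.734 CPM (SD, n = 3 each; log2 fold change of -0.59 with a standard error of 0.81, adjusted p = 0.991 from edgeR). Its transcript carries the miR-17, miR-18a, miR-19, miR-20a and miR-92a hairpins. Mir142hg, on chromosome 11 from 87755577 to 87757270, received 340, 208 and 549 reads in BALB/c against 209, 195 and 229 in SKG, at 8.65 ± 3.28 and 5.497 ± 0.715 CPM (SD, n = 3 each; adjusted p = 0.991 from edgeR). Mir22hg received 0, 0 and 193 reads in BALB/c against 357, 10 and 1 in SKG, a spread within each genotype that leaves no order between them. On single hairpin rows, Mir181a-2 had 40 reads, of which 35 were in SKG replicate 2, Mir106b had 24, of which 19 were in BALB/c replicate 1, and Mirlet7i had 20, spread over 5 libraries.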

How the data were processed

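RNA of 3 BALB/c and 3 SKG libraries was sequenced as 50 nt single reads. The authors aligned them with HISAT2 2.1.0 to GRCm38, unstranded, and counted reads overlapping exons with featureCounts (Subread 1.4.4, Ensembl release 85, mapping quality of at least 10). The deposited counts are whole numbers without normalization. The paper and the sample labels name different amplification kits, and which was used is not settled here. A second deposited table with the authors' own DESeq2 comparison was not used. Without strand, reads of overlapping genes cannot be told apart, and PCR copies cannot be told from molecules.

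Differences were tested on the counts with edgeR 4.0.16 under R 4.3.3 (filterByExpr, TMM, quasi-likelihood F test over all 12312 genes, no covariates), and in DESeq2 1.42.0 and limma 3.58.1 as alternatives. Standard errors were taken from the size of each log2 fold change and its F value (the former over the root of the latter). Positions and lengths came from GENCODE M21 (GRCm38) by symbol, and microRNA sequences from RefSeq. The script was tested on simulated counts. The genes described singly are the members, Ago4, Tnrc6c, Tarbp2, Prkra, Zap70, the 3 of lowest p in each list, microRNA rows with at least 20 reads, and the 3 genes nearest to Dicer1 in pattern. Members, lists and this rule were chosen with earlier results of these data known. Libraries with equal numbers were not treated as pairs, since correlations of their residuals lay between -0.145 and 0.00289. The result of 1 marker list is not reported here.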

Additional observations from a re-analysis of the deposited data

How the results depend on the processing

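Under all 16 other settings tried, 0 of the 9 members were called, and their lowest adjusted p was 0.597 (DESeq2 without shrinkage). These settings were other normalization factors, other filters, DESeq2, limma-voom, either replicate block and libraries left out. The p-values measure only the spread between these pools. Over all genes, edgeR's 0 calls became 2 without a filter, 1 with at least 5 CPM in 3 libraries, 231 with DESeq2 and shrunken fold changes, 370 with DESeq2 without shrinkage and 671 at an unadjusted p under 0.05 alone. Of the wider pathway genes, DESeq2 without shrinkage called 1 (Tob2, adjusted p = 0.0997, in a range up to 1.0 over all settings), and 5 had an unadjusted p under 0.05. The replicate block by title number gave 0 calls among the 9 and among all genes, and turned the log2 fold change of Dgcr8 to 0.0083. The block by library number, in which the third BALB/c and first SKG libraries stand alone, turned it to 0.32. With BALB/c replicate 1 and SKG replicate 3 both left out, a setting added after seeing the data, the values turned to -0.079 for Drosha, 0.093 for Dgcr8 and -0.12 for Ago3. In all, 128 of 144 values of the members kept their direction and 16 turned. When single libraries were dropped, the log2 fold change ranged from -0.019 to 0.26 for Drosha, -0.30 to 0.15 for Dgcr8, -0.69 to 0.39 for Dicer1, -0.40 to 0.18 for Ago2, -0.43 to 0.38 for Tnrc6b and -0.33 to 0.021 for Tnrc6c. It ranged from -0.50 to 0.62 for Mllt6, -0.61 to 0.14 for Ppp6c and -0.62 to 0.42 for Mgat5, and Mllt6 was at -0.0029 with library size alone and -0.0098 with limma-voom. The cause of these turns was not tested. The differences in family shares, SKG minus BALB/c, kept their direction with coding lengths. Leaving out a library could turn them, as leaving out SKG replicate 3 did for the shares of Ago1 and Ago2.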

Other observations

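The genes whose pattern over the 6 libraries lay nearest to that of Dicer1 were Mllt6, Ppp6c and Mgat5, with root mean square differences of 0.12, 0.17 and 0.18 between centred log2 values (CPM plus 0.5). All 3 were highest in BALB/c replicate 1 and SKG replicate 3, as Dicer1 was. Mllt6 was at 38.1, 17.1 and 13.2 CPM in BALB/c and at 11.5, 20.2 and 38.0 in SKG. Ppp6c was at 239, 125 and 124 CPM in BALB/c and at 77.9, 133 and 201 in SKG. The likeness was chosen as the closest among 12312 genes and was given no test.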
